A study of Mus musculus with 21 samples.

Results

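Glycolysis genes were followed across 7 groups of RNA libraries from the forebrain and kidney of mouse embryos at E14.5 (embryonic day 14.5). The 10 genes, chosen by name from the pathway, were Hk1, Hk2, Gpi1, Pfkl, Aldoa, Aldoc, Pgk1, Eno1, Eno2 and Ldha. Each symbol had 1 row among the 23827 gene rows of the deposited tables, and all 10 genes had reads in each of the 21 libraries, from 22 to 21066 reads per gene and library. The study set ribosome-bound RNA of whole organs and of genetically marked cells beside total RNA of the same organs.

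All embryos carried the allele Gt(ROSA)26Sor-mCherry-Rpl10a+/-, made from 1 targeted embryonic stem cell clone. After Cre recombination this allele gives cells a ribosomal protein, Rpl10a, fused to the red fluorescent protein mCherry, so that their ribosomes and the mRNA on them can be immunoprecipitated (translating ribosome affinity purification, TRAP). In Sox2Cre+/- embryos Cre acts in all derivatives of the epiblast, and these embryos gave total RNA (the brain and kidney transcriptome) and ribosome-bound RNA (the brain and kidney translatome). In Cdh5CreERT2+/- embryos Cre is driven by an endothelial cadherin promoter and needs tamoxifen, which was given by oral gavage, and these embryos gave ribosome-bound RNA of endothelial cells (brain EC and kidney EC). In Emx1Cre+/- embryos Cre acts in the dorsal telencephalon, and these gave ribosome-bound RNA of the Emx1 lineage. Each group had 3 libraries, each from the organs of 1 or 2 embryos per the study's methods, with 21760652 to 79231692 counted reads per library. Brain EC, kidney EC and the Emx1 lineage were each sequenced in a lane of their own, so lane and group cannot be told apart for them. Brain and kidney total RNA libraries shared no lane with each other, nor did the brain and kidney translatome libraries. Organ and lane cannot be told apart in those comparisons either. The labels do not say whether replicates came from different litters, so p-values measure the spread between these libraries.

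In glycolysis, hexokinase (Hk1, Hk2) traps glucose in the cell as glucose 6-phosphate, glucose phosphate isomerase (Gpi1) turns it into fructose 6-phosphate, and phosphofructokinase (Pfkl is its liver-type subunit) makes the committed step. Aldolase (Aldoa, Aldoc) splits the sugar, phosphoglycerate kinase (Pgk1) makes ATP, enolase (Eno1, Eno2) makes phosphoenolpyruvate, and lactate dehydrogenase (Ldha) turns the final pyruvate into lactate. Several steps have isoforms with known tissue preferences. Aldoc and Eno2 are the brain-type aldolase and the neuronal enolase, Hk2 is the inducible hexokinase of muscle and growing tissue, and many of these genes are targets of the hypoxia-inducible factor HIF.

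Because many of these genes are known HIF targets, the 250 bases before each annotated start were searched on both strands for ACGTG and GCGTG. These are the core letters that HIF binds. A CACGTG holds ACGTG on both strands and counts here as 1 run, and the motifs can overlap by their outer G. Windows from RefSeq (build GRCm38.p6) matched all 10 genes, with 17 windows in all because some genes have several starts. At least 1 motif was found in 13 of the 17 windows and in 8 of the 10 genes. Of the 32851 windows of all genes, 38.6% held one. That share counts windows, so it is no background for the 8 of 10 genes. Aldoa and Eno1 each have overlapping windows that hold the same motifs, so the 13 windows are not independent. Gpi1 and Eno2 had none of these letters in their windows. The windows of Aldoc, Eno2 and Hk2 are shown because these members varied most between groups, and that of Ldha because it was the member with the highest level. Where a gene has several windows the most upstream of them is shown. That of Ldha lies inside the annotated gene, which begins at chr7:46842274. Sequences run 5′ to 3′, with motif matches of either strand in capitals (CACGT and CACGC are the motifs read on the other strand).
Aldoc, chr11:78322823-78323072, plus strand: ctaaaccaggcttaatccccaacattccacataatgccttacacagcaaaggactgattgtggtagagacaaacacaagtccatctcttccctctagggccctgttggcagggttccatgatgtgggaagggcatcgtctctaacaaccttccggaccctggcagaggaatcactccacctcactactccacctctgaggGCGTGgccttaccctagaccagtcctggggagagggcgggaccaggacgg
Eno2, chr6:124769674-124769923, minus strand: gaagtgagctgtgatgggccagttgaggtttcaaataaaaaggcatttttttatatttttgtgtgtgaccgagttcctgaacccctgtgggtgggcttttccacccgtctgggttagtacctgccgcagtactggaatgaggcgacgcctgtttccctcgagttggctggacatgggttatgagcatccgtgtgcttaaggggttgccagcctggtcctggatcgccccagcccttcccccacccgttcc
Hk2, chr6:82774455-82774704, minus strand: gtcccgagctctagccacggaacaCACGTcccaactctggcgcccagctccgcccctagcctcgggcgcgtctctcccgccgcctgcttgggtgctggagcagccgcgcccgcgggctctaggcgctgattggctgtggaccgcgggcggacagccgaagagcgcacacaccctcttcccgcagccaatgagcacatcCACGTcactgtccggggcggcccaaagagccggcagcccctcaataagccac
Ldha, chr7:46845554-46845803, plus strand: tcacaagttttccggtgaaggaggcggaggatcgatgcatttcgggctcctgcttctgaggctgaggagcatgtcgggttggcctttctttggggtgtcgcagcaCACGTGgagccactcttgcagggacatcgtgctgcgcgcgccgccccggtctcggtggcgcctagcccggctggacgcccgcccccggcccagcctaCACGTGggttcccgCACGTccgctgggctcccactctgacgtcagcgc
The Ldha window held 3 runs in capitals, the Hk2 window 2 and the Aldoc window 1. The motifs describe these windows and say nothing about binding in these cells.

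Processed copies of glycolysis genes are spread over the mouse genome, and the rows of Eno1 and Pgk1 were the members they touched most. The deposited reads and RPKM of Eno1 together gave a counted length of 128 bases, 6.32% of the 2027 bases of its annotated transcript, whereas the other 9 members were counted over 88.2% to 101% of theirs. Of the 50-base windows of the Eno1 transcript, 72.2% occurred letter for letter in another annotated gene, and 70.5% in Eno1b. Eno1 had 22 to 107 reads per library, the fewest of the 10 genes. For Pgk1 68.0% of windows were shared, nearly all with the processed pseudogene Pgk1-rs7. Its RPKM (reads per kilobase of the row, scaled to library depth) stayed between 4.94 and 13.3, while Aldoa and Ldha of the same pathway had at least 94.5 and 103 in every library.

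The share of repeated windows was 25.3% for Gpi1, 16.6% for Ldha, with 14 pseudogenes, and 13.5% for Aldoa. It was 2.55% for Hk1, all of it in the antisense gene Hk1os, and under 1% for Hk2, Pfkl, Aldoc and Eno2. The library kit and the counting are not stated to use strand, so Hk1 and Hk1os reads cannot be separated. Gapdh, the glycolytic dehydrogenase that is no member here, shared 82.5% of its windows and had 4 to 138 reads per library. The way reads with several matches were counted is not given in the sources used here, and its part in the low values of Eno1, Pgk1 and Gapdh was not tested.

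**Figure D1:**
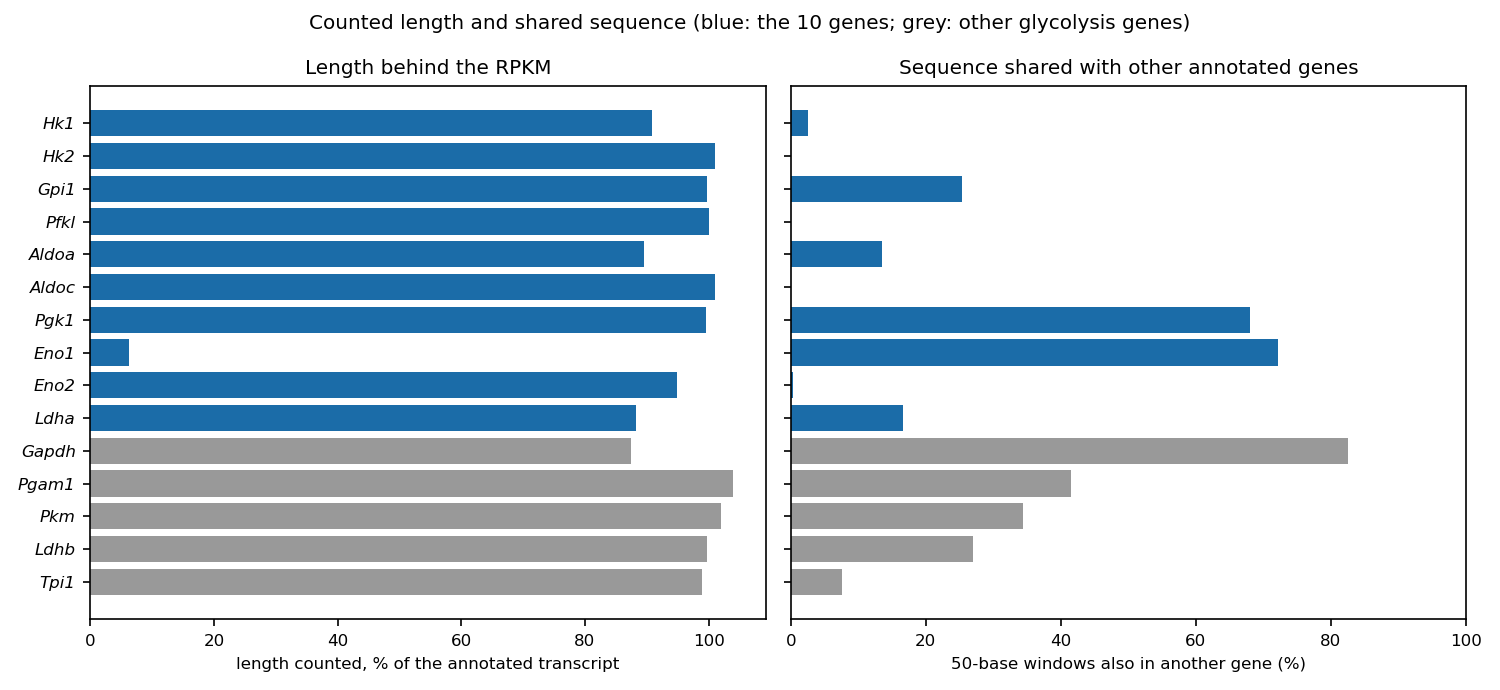
The left panel plots the length behind the RPKM as a percent of the annotated transcript, and the right panel the percent of 50-base windows that also occur in another annotated gene, with the 10 genes in blue and other glycolysis genes in grey. Eno1 stands out at 6.32% of its length counted, and Eno1, Pgk1 and Gapdh at 72.2%, 68.0% and 82.5% of windows shared.

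The lineages were recognisable by their markers. The summed RPKM of 6 endothelial markers was 2532 to 2670 in brain EC against 127 to 149 in the brain translatome, and 1480 to 1688 in kidney EC against 256 to 272 in the kidney translatome. The neuron markers, 5 in number, still summed to 399.8 to 514 in brain EC, against 2319 to 2347 in the brain translatome, and 7 nephron and ureteric markers to 63.0 to 82.3 in kidney EC, against 354 to 367. In the Emx1 lineage 5 dorsal progenitor markers summed to 326 to 337 (brain translatome 191 to 203) and 5 ventral telencephalon markers to 47.8 to 51.0 (194 to 211). In these bulk libraries fewer cells of a type and less RNA per cell cannot be told apart.

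The members differed widely in how much their level changed over the 7 groups. Group means of Aldoc spanned a 209-fold range and those of Eno2 a 31.0-fold range. For Hk2 the range was 6.12-fold, and the other 7 members stayed within 1.86-fold (Hk1) to 2.52-fold (Ldha). Kidney total RNA had the highest mean RPKM of 6 members, Hk2, Gpi1, Pfkl, Pgk1, Eno1 and Ldha. RPKM of the endothelial groups carries a shift against the bulk of genes, which is given with the endothelial comparisons below.

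**Figure D2:**
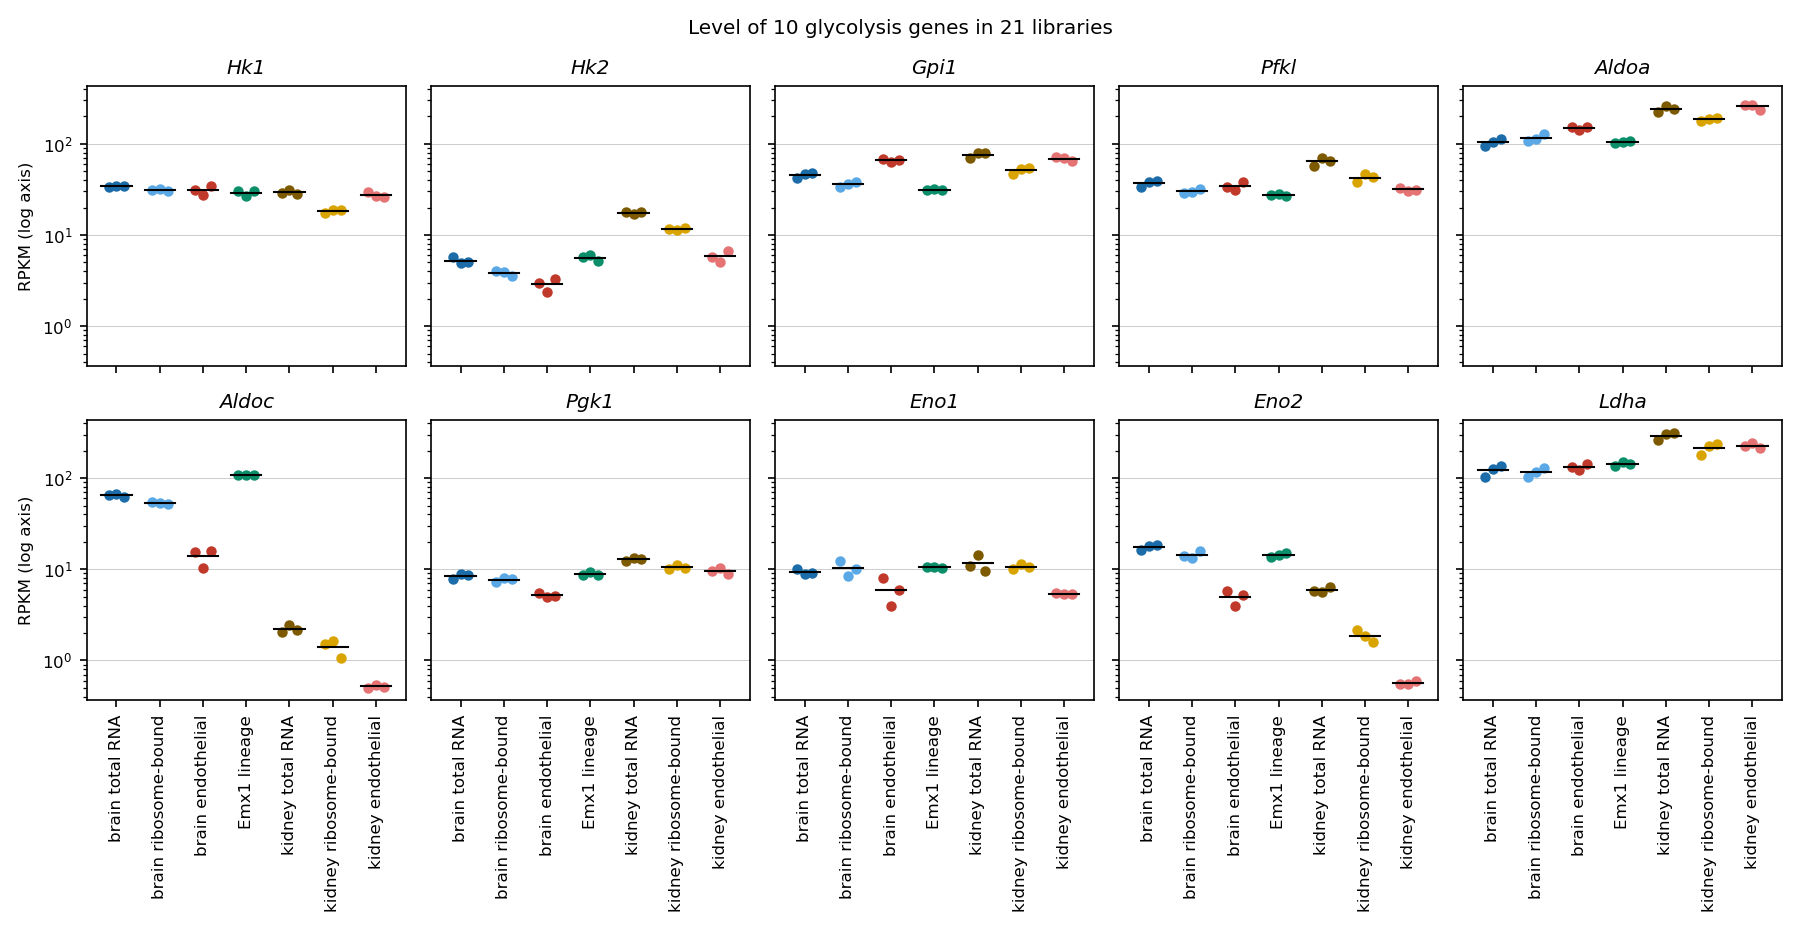
Each panel plots the RPKM of 1 gene on a log axis in the 21 libraries, with 3 points and their mean as a line for each of the 7 groups. Aldoc and Eno2 span 209-fold and 31.0-fold between group means, whereas Hk1 stays between 17.3 and 34.9 RPKM in all libraries.

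Hk1, the constitutive hexokinase, was the steadiest member. Its RPKM was 33.3, 34.3 and 34.9 in the brain transcriptome and 31.4, 32.0 and 30.6 in the brain translatome. In brain EC it was 31.4, 27.1 and 34.7, and in the Emx1 lineage 30.3, 26.7 and 30.3. Kidney values were 28.6, 31.2 and 28.4 in the transcriptome, 17.3, 19.0 and 19.0 in the translatome and 29.9, 26.8 and 25.9 in kidney EC. The kidney translatome was therefore the low group, and no library of it reached any other group.

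Hk2 had its highest level in kidney. It stood at 17.7, 17.1 and 17.7 RPKM in the kidney transcriptome and at 11.6, 11.4 and 11.9 in the kidney translatome. Kidney EC had 5.72, 5.08 and 6.71, which overlapped the 5.68, 6.05 and 5.21 of the Emx1 lineage. The brain transcriptome had 5.71, 4.90 and 5.02 and the brain translatome 4.02, 3.90 and 3.51. Brain EC had 2.97, 2.34 and 3.29, the lowest RPKM without overlap. On the scale used for the tests below, Hk2 was not called between brain EC and the brain translatome.

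Gpi1 had its highest mean RPKM in kidney total RNA, at 70.6, 79.8 and 78.5, and both endothelial groups came next. Brain EC had 68.2, 63.0 and 66.6 and kidney EC 71.1, 69.1 and 64.7, which overlapped. Kidney EC also overlapped kidney total RNA. The Emx1 lineage was lowest at 30.9, 32.0 and 31.1, below the brain translatome at 33.7, 36.2 and 37.8. The brain transcriptome had 41.8, 47.0 and 47.3, which overlapped the kidney translatome (47.1, 53.6 and 54.9). Pfkl ranged from 26.7 to 70.5 RPKM, with the kidney transcriptome (57.5, 70.5 and 64.9) above all other groups and the Emx1 lineage (27.7, 28.5 and 26.7) below them.

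Aldoa, the widespread aldolase, was high everywhere. Its mean was 258 ± 18.7 RPKM (SD, n = 3) in kidney EC, 240.5 ± 17.8 in the kidney transcriptome and 186 ± 8.75 in the kidney translatome. Brain means were 104 ± 9.28 in the transcriptome, 116 ± 9.49 in the translatome, 151 ± 6.34 in brain EC and 105 ± 3.06 in the Emx1 lineage. The lowest kidney library, at 176, lay above the highest brain library, at 154.

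Aldoc, the brain aldolase, had the most lineage-dependent level. It stood at 108, 109 and 108 RPKM in the Emx1 lineage, at 65.1, 67.0 and 61.6 in the brain transcriptome and at 54.7, 52.8 and 52.1 in the brain translatome. Brain EC had 15.5, 10.2 and 16.1. Kidney values were 2.04, 2.44 and 2.17 in the transcriptome, 1.51, 1.64 and 1.06 in the translatome and 0.503, 0.538 and 0.514 in kidney EC, where 30 to 38 reads lay behind them. No neighbouring groups in this order overlapped.

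Pgk1 was highest in the kidney transcriptome, at 12.3, 13.3 and 12.9 RPKM, and lowest in brain EC, at 5.55, 4.94 and 5.11, and the 5 groups from the kidney translatome down to the brain translatome overlapped from neighbour to neighbour. Eno1 ranged from 3.99 to 14.4 RPKM, and its only neighbouring groups apart from each other were the brain transcriptome (10.1, 8.77 and 9.08) and brain EC (8.00, 3.99 and 5.90). All Eno1 values rest on at most 107 reads over 128 bases.

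Eno2, the neuronal enolase, followed the brain but less steeply than Aldoc. It had 16.4, 17.9 and 18.6 RPKM in the brain transcriptome, 13.8, 14.3 and 15.0 in the Emx1 lineage and 14.0, 13.3 and 15.7 in the brain translatome, and the latter groups overlapped. The kidney transcriptome had 5.72, 5.66 and 6.33 and brain EC 5.76, 3.96 and 5.20, which also overlapped. The kidney translatome had 2.16, 1.85 and 1.60 and kidney EC 0.557, 0.546 and 0.601, each apart from its neighbours.

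Ldha was the member with the highest group mean. It stood at 260.2, 308 and 312 RPKM in the kidney transcriptome, at 178, 228 and 236 in the kidney translatome and at 225, 245 and 213 in kidney EC. The Emx1 lineage had 137, 149 and 142 and brain EC 132, 124 and 142. The brain transcriptome (103, 127 and 138) and translatome (104, 115 and 130) were lowest, and those 4 brain groups overlapped from neighbour to neighbour.

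Ratios of isoforms within a library do not depend on how libraries are scaled. Aldoc made up 50.8% ± 0.638 (SD, n = 3) of the summed RPKM of Aldoa and Aldoc in the Emx1 lineage, 38.4% ± 2.84 in the brain transcriptome and 31.4% ± 2.23 in the brain translatome. Its share was 8.40% ± 1.51 in brain EC, 0.913% ± 0.0273 in the kidney transcriptome, 0.754% ± 0.179 in the kidney translatome and 0.201% ± 0.0154 in kidney EC. The brain groups and the kidney groups thus did not overlap, and each endothelial group was the lowest of its organ.

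Hk2 made up 37.4% ± 1.65 of the 2 hexokinases in the kidney transcriptome and 38.8% ± 1.40 in the kidney translatome. Its share was 17.5% ± 2.66 in kidney EC, 16.3% ± 1.94 in the Emx1 lineage, 13.2% ± 1.21 in the brain transcriptome, 10.8% ± 0.530 in the brain translatome and 8.40% ± 0.397 in brain EC. Here too the endothelial group was the lowest of its organ. Of the lactate dehydrogenases, Ldhb, the heart-type isoform, made up 40.0% in the brain transcriptome, 42.7% in the brain translatome and 39.8% in the Emx1 lineage, but 15.0% in brain EC. In kidney its share was 21.6% in the transcriptome, 20.7% in the translatome and 6.41% in kidney EC.

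Of the phosphofructokinase subunits, Pfkl made up 62.0% to 64.6% of the summed RPKM in the 3 kidney groups, 48.0% in brain EC and 35.4% to 39.8% in the other brain groups. Pfkp, the platelet-type subunit, made up 19.3% in brain EC and 13.1% in kidney EC. It was 15.3% in the brain transcriptome but 2.87% in the brain translatome, where its level was 2.18 RPKM against 15.9 in total RNA. A share of Eno2 among the enolases is given only with its limit, since Eno1 was counted over 128 bases: 65.4% in the brain transcriptome and 9.54% in kidney EC were the highest and lowest means.

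**Figure D3:**
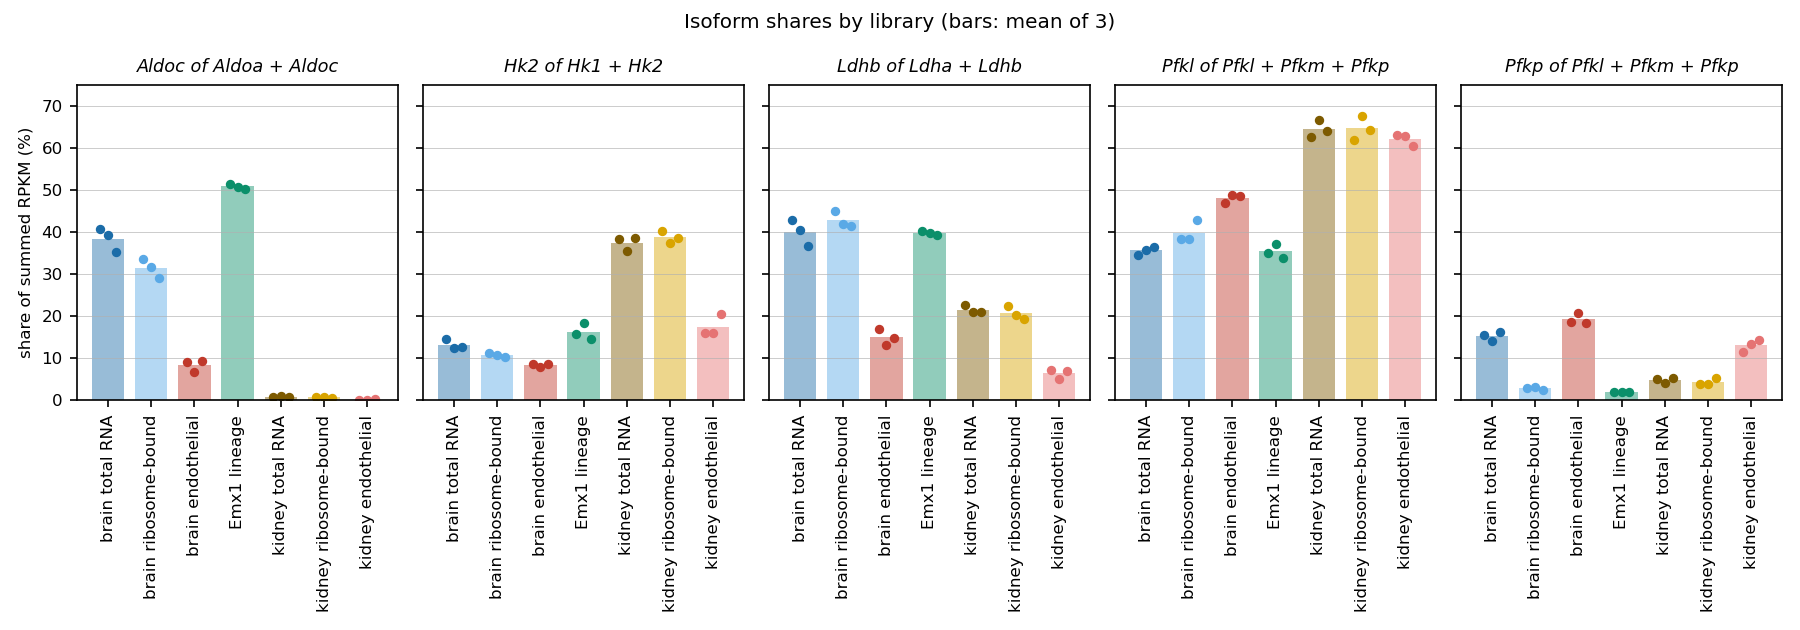
Bars give the mean and points the 3 libraries of each isoform's share of the summed RPKM of its step, in percent, for the 7 groups. Aldoc makes up 50.8% of aldolase RPKM in the Emx1 lineage and 0.201% in kidney EC, and the Aldoc, Hk2 and Ldhb shares are lowest in the endothelial group of each organ.

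The comparison of translatome and transcriptome asks which mRNAs are more or less represented on tagged ribosomes than in the total RNA of the same organ. Fold changes below come from counts scaled with TMM (trimmed mean of M values, which centres the bulk of genes on no change), tested with edgeR's quasi-likelihood test, and a gene was called at a Benjamini-Hochberg adjusted p under 0.001 over all rows. In kidney 6 of the 10 members were lower in the translatome, none was higher, and all 10 fold changes were negative. Of all 19336 rows tested 30.7% were called, 14.9% as higher and 15.8% as lower, and the median log2 fold change was -0.57 for the members and -0.03 for all rows. Eno2 fell most, by 1.65 ± 0.12 (SE) on the log2 scale (3.14-fold lower, adjusted p = 1.5e-06), from 5.66 to 6.33 RPKM in total RNA to 1.60 to 2.16 on ribosomes.

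The other members called in kidney were lower on ribosomes by 1.30-fold to 1.51-fold. Hk1 was 1.51-fold lower (adjusted p = 3.4e-06), Hk2 1.50-fold (adjusted p = 8.9e-07), Pfkl 1.51-fold (adjusted p = 1.6e-04), Gpi1 1.47-fold (adjusted p = 3.5e-05) and Aldoa 1.30-fold (adjusted p = 3.3e-04). Ldha (log2 -0.46, adjusted p = 3.5e-03), Aldoc (-0.65, adjusted p = 0.012) and Pgk1 (-0.29, adjusted p = 9.1e-03) did not pass the threshold. Translatome and transcriptome libraries of the same number came from the same tissue sample. With that pairing in the fit these 3 genes were also called, giving 9 members (Ldha adjusted p = 6.1e-33, Aldoc 1.3e-05, Pgk1 9.9e-06). That fit called 9496 of all rows instead of 5929. The 3 Ldha pairs fell from 260.2 to 178, 308 to 228 and 312 to 236 RPKM. With 3 pairs, so small a p-value is not taken as a measure of their spread. The Aldoa call was lost without kidney transcriptome library 2 or 3 or any kidney translatome library (adjusted p = 1.0e-03 to 1.2e-03), and the Pfkl call without kidney translatome library 3 (adjusted p = 1.3e-03). Kidney translatome library 3 shared its lane with the 3 transcriptome libraries, and it lay below all of them in 9 members.

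In brain the fold changes were nearer to 0. Of the members 3 were lower in the translatome and none higher, with 37.1% of 19446 rows called, 18.6% as higher and 18.5% as lower. Hk2 fell by 0.42 ± 0.08 (SE) on the log2 scale (adjusted p = 5.9e-04), Gpi1 by 0.31 ± 0.06 (adjusted p = 5.3e-04) and Aldoc by 0.25 ± 0.05 (adjusted p = 4.6e-04). Hk1 (log2 -0.05, adjusted p = 0.35) and Ldha (-0.04, adjusted p = 0.72) were not called, and Aldoa was at +0.19 (adjusted p = 0.037) with overlapping libraries. With the tissue sample as a pairing term, Pfkl (adjusted p = 7.0e-05) and Eno2 (adjusted p = 3.4e-04) were called as lower too, giving 5 members. The 37.1% of rows above belongs to the fit without pairing, so it is no background for this count. Brain transcriptome library 1 shared its lane with the 3 translatome libraries and lay above all of them for Hk2, Gpi1 and Aldoc. The Hk2 and Aldoc calls were lost in a single fit of all 21 libraries (adjusted p = 1.1e-03 and 0.027). The Hk2 call was lost without brain transcriptome library 1 or 3 or translatome library 2 or 3 (adjusted p = 1.0e-03 to 4.2e-03), the Aldoc call without transcriptome library 1 or 2 or translatome library 2 or 3 (adjusted p = 1.9e-03 to 2.9e-03), and the Gpi1 call without transcriptome library 3 or translatome library 1 or 2 (adjusted p = 1.6e-03 to 2.1e-03).

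The test of the difference between organs called 2 members, with 6.47% of 20108 rows called, 2.35% as higher in brain and 4.12% as lower. The translatome to transcriptome log2 change of Eno2 was 1.36 ± 0.14 (SE) higher in brain than in kidney (adjusted p = 1.0e-05), and that of Hk1 0.53 ± 0.07 higher (adjusted p = 5.2e-05). Aldoa missed the threshold at 0.54 ± 0.10 (adjusted p = 1.1e-03), and it was called with replicate number as a block (adjusted p = 3.7e-05), as was Ldha (adjusted p = 5.5e-04), giving 4 members. That block joins brain and kidney libraries of the same number, while a shared tissue sample is known only within an organ. The 6.47% above belongs to the fit without the block. Summed erythroid markers, which mark blood cells in the tissue, were 353 to 665 RPKM in the kidney transcriptome and 92.0 to 174 in the translatome, and 186 to 429 against 98.5 to 192 in brain. Of these 6 markers 1 was at 0 in every library. Their part in the differences was not tested.

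Between the organs, 9 of the 10 members differed in total RNA, 3 higher in brain and 6 higher in kidney, with 53.5% of 19841 rows called, 27.2% as higher in brain and 26.3% as lower. Aldoc was 33.2-fold higher in brain (log2 5.05 ± 0.07 SE, adjusted p = 7.9e-13), Eno2 3.41-fold (adjusted p = 3.5e-09) and Hk1 1.33-fold (adjusted p = 7.9e-06). Hk2 was 2.95-fold higher in kidney (adjusted p = 2.2e-09), Ldha 2.10-fold (adjusted p = 2.3e-06) and Aldoa 2.04-fold (adjusted p = 1.4e-07). Pfkl was 1.52-fold, Gpi1 1.47-fold and Pgk1 1.32-fold higher in kidney. The brain and kidney transcriptome libraries shared no lane, so organ and lane cannot be told apart here. The Pgk1 call was lost without brain or kidney transcriptome library 2 or 3 (adjusted p = 1.6e-03 to 2.1e-03), and Eno1 showed a log2 difference of -0.15 ± 0.20 (adjusted p = 0.53).

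In ribosome-bound RNA 7 members differed between the organs, 3 higher in brain and 4 higher in kidney, with 53.4% of 19241 rows called, 27.2% as higher in brain and 26.2% as lower. Aldoc was 43.2-fold higher in brain (adjusted p = 4.1e-14), Eno2 8.78-fold (adjusted p = 3.2e-11) and Hk1 1.92-fold (adjusted p = 2.1e-09). Hk2 was 2.65-fold higher in kidney (adjusted p = 5.3e-10), Ldha 1.59-fold (adjusted p = 4.2e-05), Aldoa 1.39-fold (adjusted p = 1.8e-05) and Gpi1 1.26-fold (adjusted p = 5.6e-04). The Gpi1 call was lost without brain translatome library 1 or 2 or kidney translatome library 2 or 3 (adjusted p = 1.7e-03 to 0.010) and the Ldha call without brain translatome library 1 (adjusted p = 3.9e-03). The Gpi1 call was also lost when rows needed at least 10 reads in 3 samples (adjusted p = 1.1e-03). Pfkl (log2 -0.29, adjusted p = 3.2e-03) and Pgk1 (-0.25, adjusted p = 0.031) were not called. The brain and kidney translatome libraries shared no lane, so organ and lane cannot be told apart here either. Without the TMM factors the median of all rows moved by -0.18 in total and -0.19 in ribosome-bound RNA, and Pfkl (-0.48, adjusted p = 4.8e-05) and Pgk1 (-0.45, adjusted p = 9.3e-04) were then called in ribosome-bound RNA as higher in kidney.

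The endothelial comparisons ask which mRNAs are enriched on the ribosomes of endothelial cells over those of the whole organ. They depend on scale: without the TMM factors the median log2 change of all rows moved by -0.30 in brain and by -0.37 in kidney, and RPKM, which is scaled to the total of mRNA reads, carries the same shift. Changes are therefore given relative to the bulk of genes. In brain EC 4 members were higher and 2 lower than in the brain translatome, with 46.2% of 19103 rows called, 24.8% as higher and 21.4% as lower. Gpi1 rose most, 2.25-fold (log2 1.17 ± 0.07 SE, adjusted p = 6.2e-09), and Aldoa 1.58-fold (adjusted p = 3.8e-06), and both were also higher in RPKM without overlap. Aldoc was 3.12-fold lower (adjusted p = 1.3e-07) and Eno2 2.35-fold lower (adjusted p = 1.1e-06).

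Pfkl (1.39-fold, adjusted p = 1.5e-04) and Ldha (1.39-fold, adjusted p = 3.4e-04) were called as higher in brain EC on the TMM scale, but their RPKM overlapped and by total counts neither was called (log2 0.18, adjusted p = 0.058, and 0.17, adjusted p = 0.089). The Pfkl call was also lost without brain translatome library 1 (adjusted p = 3.0e-03). The Ldha call was lost without brain translatome library 1 or 2 or brain EC library 3 (adjusted p = 1.1e-03 to 4.3e-03). It was lost as well when rows needed at least 10 reads in 3 samples (adjusted p = 1.2e-03). Hk1 had a log2 change of 0.23 (adjusted p = 0.029), which was -0.07 by total counts, and by total counts Pgk1 was called as lower as well (log2 -0.57, adjusted p = 1.4e-04). Hk2 was not called by TMM (log2 -0.12 ± 0.12 SE, adjusted p = 0.38), though its RPKM lay below the brain translatome without overlap. The lower Aldoc and Eno2 went with the lower sum of the neuron markers in brain EC (399.8 to 514 against 2319 to 2347 RPKM), and how much of the remaining Aldoc and Eno2 came with residual neuronal RNA was not tested.

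In kidney EC 3 members were higher and 2 lower than in the kidney translatome, with 31.7% of 18940 rows called, 16.7% as higher and 15.0% as lower. Hk1 was 1.86-fold higher (log2 0.89 ± 0.06 SE, adjusted p = 5.4e-07), Aldoa 1.77-fold (adjusted p = 1.8e-06) and Gpi1 1.68-fold (adjusted p = 3.9e-06). Eno2 was 2.57-fold lower (adjusted p = 8.0e-05) and Hk2 1.56-fold lower (adjusted p = 2.4e-04). Aldoc had a log2 change of -1.08 ± 0.24 (adjusted p = 2.8e-03) with 30 to 66 reads per library. The Hk2 call was lost without kidney translatome library 1 or 3 or kidney EC library 1 (adjusted p = 1.1e-03 to 2.7e-03), and Pgk1 changed direction with the scale, at log2 0.22 by TMM and -0.15 by total counts, called under neither. By total counts Pfkl (log2 -0.44, adjusted p = 4.0e-04, against -0.07 by TMM) and Aldoc (log2 -1.45, adjusted p = 2.8e-04) were also called, giving 4 lower members. The nephron and ureteric markers summed to 63.0 to 82.3 RPKM in kidney EC against 354 to 367 in the kidney translatome, 5 kidney stroma markers to 151 to 206 against 449.8 to 547, and 5 mural markers to 97.2 to 109 against 102 to 118. The mural markers went opposite ways. Mean RPKM was lower in kidney EC for Pdgfrb (8.76 against 30.0), Rgs5 (6.11 against 38.6) and Kcnj8 (3.92 against 11.4). It was higher for Cspg4 (73.9 against 23.8) and Abcc9 (11.4 against 6.72). The part of these cell types in the kidney EC differences was not tested.

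Gpi1 and Aldoa were thus called as higher, and Eno2 as lower, in the endothelial cells of both organs. The difference between the organs in this enrichment was tested directly and called 2 members, with 25.1% of 19764 rows called (16.5% as higher in brain and 8.60% as lower) and a median of 0.15 over all rows. The endothelial log2 change of Hk1 was 0.63 ± 0.11 lower in brain than in kidney (log2 difference -0.63, adjusted p = 2.2e-04). That of Pfkl was 0.57 ± 0.12 higher in brain (adjusted p = 8.6e-04), a call that was lost in 10 of the 12 fits that each left out 1 library (all 3 brain translatome libraries, kidney translatome libraries 2 and 3, brain EC libraries 1 and 3 and all 3 kidney EC libraries, adjusted p = 1.0e-03 to 4.0e-03). Gpi1 was at 0.44 (adjusted p = 1.6e-03), not called by TMM but called by total counts (0.49, adjusted p = 6.2e-04).

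**Figure D4:**
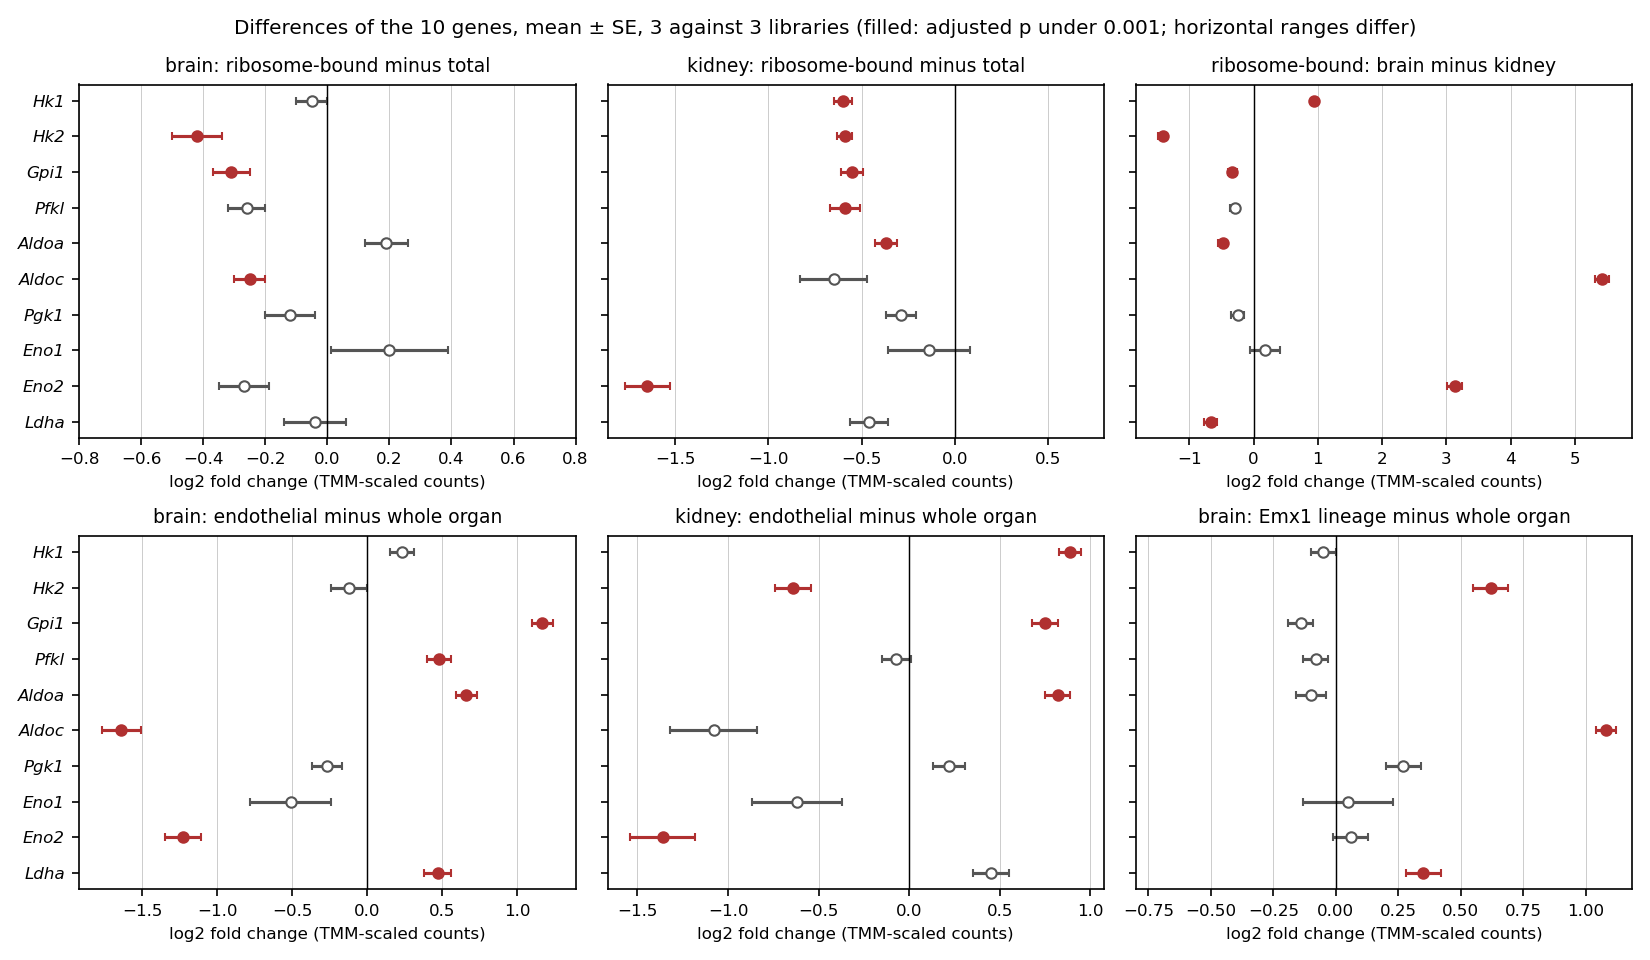
Points give the log2 fold change of TMM-scaled counts with its SE for the 10 genes in 6 comparisons of 3 against 3 libraries, filled where the adjusted p was under 0.001, and the horizontal ranges differ between panels. All 10 changes are negative for ribosome-bound against total RNA in kidney, and Gpi1 and Aldoa lie to the right and Eno2 to the left in both endothelial panels.

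Set directly against each other, the endothelial cells of brain and kidney differed in 6 members, with 37.0% of 19238 rows called, 20.1% as higher in brain EC and 16.9% as lower. Aldoc was 27.6-fold higher in brain EC (adjusted p = 9.2e-09) and Eno2 8.99-fold (adjusted p = 5.2e-08). Hk2 was 1.98-fold (adjusted p = 1.2e-04), Pgk1 1.78-fold (adjusted p = 2.4e-05), Ldha 1.67-fold (adjusted p = 7.0e-06) and Aldoa 1.66-fold (adjusted p = 7.1e-06) higher in kidney EC. Gpi1 (log2 -0.01 ± 0.07), Pfkl (0.16 ± 0.08) and Hk1 (0.19 ± 0.09) overlapped. None of the 6 calls was lost when a single library was left out, and 6 were made with replicate number as a block as well. The neuron markers stood at 399.8 to 514 RPKM in brain EC and at 15.3 to 16.8 in kidney EC, and their part in the Aldoc and Eno2 differences was not tested.

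Glucose enters these cells through transporters of the Slc2a family. Slc2a1, the glucose transporter of the blood-brain barrier, was at 722 ± 28.9 RPKM (SD, n = 3) in brain EC and 48.6 ± 2.08 in the brain translatome, 18.2-fold higher on the TMM scale (adjusted p = 6.4e-13). In kidney EC it was at 24.6 RPKM against 30.0 in the kidney translatome (log2 0.07, adjusted p = 0.35), and the difference between the organs was 4.14 ± 0.10 on the log2 scale (adjusted p = 4.6e-14). Among 8 genes of glucose and lactate transport 2 were higher and 3 lower in brain EC than in the brain translatome, where 24.8% of all rows were called as higher and 21.4% as lower.

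The Emx1 lineage had 3 members higher than the brain translatome and none lower, with 22.1% of 19006 rows called, 9.20% as higher and 12.8% as lower. Aldoc was 2.11-fold higher (log2 1.08 ± 0.04 SE, adjusted p = 3.8e-11), with 108 to 109 RPKM in the Emx1-lineage libraries and at most 54.7 in the brain translatome. Hk2 was 1.54-fold higher (adjusted p = 6.4e-06). Ldha was 1.27-fold higher (adjusted p = 6.1e-04), a call that was lost without brain translatome library 1 or 2 or Emx1-lineage library 2 or 3 (adjusted p = 1.4e-03 to 4.9e-03) and by total counts (adjusted p = 1.7e-03). It was also lost when rows needed at least 10 reads in 3 samples (adjusted p = 3.7e-03) and in a single fit of all 21 libraries (0.012). Hk1, Pfkl, Aldoa, Eno1 and Eno2 had log2 changes between -0.10 and 0.06, none of them called. Endothelial markers summed to 11.9 to 13.8 RPKM in the Emx1 lineage, ventral telencephalon markers to 47.8 to 51.0 and dorsal progenitor markers to 326 to 337, and the part of these cell types in the Aldoc, Hk2 and Ldha differences was not tested.

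Against brain EC, the Emx1 lineage had 4 members higher and 3 lower, with 51.1% of 19143 rows called, 25.2% as higher and 25.9% as lower. Aldoc was 6.71-fold higher (adjusted p = 2.8e-09), Eno2 2.49-fold (adjusted p = 5.7e-07), Hk2 1.70-fold (adjusted p = 4.9e-05) and Pgk1 1.48-fold (adjusted p = 6.7e-05). Gpi1 was 2.43-fold lower (adjusted p = 1.1e-09), Aldoa 1.66-fold (adjusted p = 2.2e-07) and Pfkl 1.44-fold lower (adjusted p = 2.5e-05), the last not called by total counts (adjusted p = 2.1e-03). Both members of the aldolase pair were thus called, in opposite directions. The neuron markers summed to 2281 to 2439 RPKM in the Emx1 lineage against 399.8 to 514 in brain EC, the dorsal progenitor markers to 326 to 337 against 41.3 to 52.4, and the endothelial markers to 11.9 to 13.8 against 2532 to 2670, and their part in these differences was not tested. Without the TMM factors the median of all rows moved by 0.22.

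Comparing lineage-restricted ribosomes with total RNA mixes the step to the ribosome with the choice of cells, so only the counts and the clearest members are given. Without the TMM factors the median of all rows moved by -0.34 for brain EC, -0.44 for kidney EC and -0.15 for the Emx1 lineage. In brain EC against the brain transcriptome 2 members were higher (Gpi1 and Aldoa, 1.83-fold each) and 2 lower (Aldoc 3.67-fold, Eno2 2.80-fold), with 51.1% of 19522 rows called, 26.8% as higher and 24.3% as lower. By total counts Hk2 (log2 -0.86, adjusted p = 1.3e-05) and Pgk1 (log2 -0.71, adjusted p = 1.3e-05) were called as lower too. In kidney EC against the kidney transcriptome 2 were higher and 4 lower, with 41.1% of 19335 rows called, 22.7% as higher and 18.4% as lower. Eno2 was 7.69-fold lower there (adjusted p = 1.6e-08), Aldoc 3.18-fold (adjusted p = 1.3e-05), Hk2 2.23-fold (adjusted p = 3.0e-06) and Pfkl 1.51-fold (adjusted p = 5.1e-05). Of the higher pair, Hk1 was at log2 0.37 by TMM (adjusted p = 4.0e-04) but at -0.07 by total counts and -0.09 as a ratio of RPKM. Aldoa was at 0.52 by TMM (adjusted p = 9.5e-05) and 0.09 by total counts (adjusted p = 0.31), so neither rise was independent of the scale. The Hk1 call was also lost without kidney transcriptome library 1 or 3 or kidney EC library 1 (adjusted p = 2.0e-03 to 2.5e-03). It was lost as well with replicate number as a block (adjusted p = 2.0e-03) and in a single fit of all 21 libraries (1.6e-03). Pgk1 was at log2 0.00 by TMM and -0.43 by total counts (adjusted p = 6.6e-04). Gpi1 was at 0.27 by TMM (adjusted p = 2.4e-03) and -0.17 by total counts, called under neither. Ldha was at 0.06 by TMM (adjusted p = 0.47) and -0.37 by total counts, called under neither.

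In the Emx1 lineage against the brain transcriptome 2 members were higher (Aldoc 1.87-fold, adjusted p = 2.9e-11, and Ldha 1.30-fold, adjusted p = 6.0e-04) and 2 lower (Gpi1 1.30-fold, adjusted p = 5.6e-06, and Pfkl 1.20-fold, adjusted p = 4.4e-04), with 49.3% of 19471 rows called, 25.4% as higher and 23.8% as lower. The Ldha call was lost without Emx1-lineage library 2 or 3 (adjusted p = 5.9e-03 and 1.0e-03) and by total counts (adjusted p = 0.017), where Hk1 (log2 -0.18, adjusted p = 7.7e-04) and Eno2 (log2 -0.29, adjusted p = 6.8e-04) were called as lower. The Pfkl call was lost without brain transcriptome library 3 or Emx1-lineage library 2 or 3 (adjusted p = 1.5e-03 to 1.8e-03). The Ldha call was also lost when rows needed at least 10 reads in 3 samples (adjusted p = 3.1e-03) and in a single fit of all 21 libraries (0.027).

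The remaining genes of the pathway were read from lists of names. Of 18 further glycolysis genes, 1 was higher and 7 lower on ribosomes in kidney, of 18 tested, with a median log2 change of -0.55 beside -0.03 for all rows, of which 14.9% were called as higher and 15.8% as lower. The 7 lower in kidney were Hkdc1, Pfkm, Gapdh, Gapdhs, Eno3, Pkm and Ldhb. Gapdh had 4 to 16 and Gapdhs 9 to 16 reads per kidney translatome library. In brain 2 were higher and 5 lower of 17 tested, with a median of -0.30 beside -0.01 for all rows (18.6% called as higher, 18.5% as lower). The 5 were Pfkp, Gapdh, Gapdhs, Eno3 and Pklr, the last with 3 to 8 brain translatome reads. Medians of this list, here and below, include such low rows, among them Pgk2 and Ldhc (at most 1 and 5 reads in any library). Pkm, which makes pyruvate and was read at 191 to 355 RPKM, fell by 0.61 ± 0.06 on the log2 scale in kidney (adjusted p = 1.5e-05) and had -0.25 ± 0.06 in brain (adjusted p = 1.7e-03). Bpgm, which diverts bisphosphoglycerate and is known from red blood cells, was higher on ribosomes in both organs, at 63.6 against 32.5 RPKM in brain and 29.7 against 20.7 in kidney.

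In brain EC 1 of these genes was higher and 5 lower than in the brain translatome of 17 tested (median log2 -0.60), beside a median of -0.01 over all rows, 24.8% of them called as higher and 21.4% as lower. In kidney EC 2 were higher and 6 lower of 18 tested (median -0.34), beside -0.04 over all rows, 16.7% of them called as higher and 15.0% as lower. Pfkp was the gene called as higher in both, 7.69-fold in brain (adjusted p = 1.5e-11) and 2.97-fold in kidney (adjusted p = 4.0e-06). The brain fold rests on a low translatome level, 2.18 RPKM against 13.7 in brain EC and 15.9 in total RNA. Against total RNA, Pfkp was not called in brain EC but was called as higher in kidney EC. Ldhb was called as lower in both, 3.01-fold in brain (adjusted p = 2.9e-08) and 2.78-fold in kidney (adjusted p = 4.9e-07), while Ldha was at log2 0.47 and 0.45. In the Emx1 lineage 1 was higher and 4 lower than in the brain translatome of 17 tested (median 0.00), beside 0.00 over all rows, 9.20% of them called as higher and 12.8% as lower.

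Among 5 bifunctional regulators of phosphofructokinase and related switches, 4 were higher in brain than in kidney in total RNA (median log2 1.23) and 4 in ribosome-bound RNA (median 1.41), none lower. Of all rows 27.2% were called as higher in brain in either RNA, 26.3% as lower in total RNA and 26.2% as lower in ribosome-bound RNA. Pfkfb3, the strongly activating isoform, was at 20.2 ± 1.48 RPKM in the brain and 10.1 ± 0.399 in the kidney transcriptome. Of the monocarboxylate transporters, which carry lactate, Slc16a1 was at 6.58 RPKM in the brain and 28.0 in the kidney transcriptome, and Slc16a3 at 3.08 and 18.4, both called as lower in brain. Of 10 genes of pyruvate fate 1 was higher and 4 lower in brain total RNA, close to the 53.5% of all rows called there, among them Pdk1, which holds back pyruvate oxidation (8.26 RPKM in brain, 13.8 in kidney).

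Of 12 hypoxia-induced genes outside the pathway, 3 were higher and 5 lower in brain than in kidney in total RNA (median log2 -0.37), and 3 higher and 5 lower in ribosome-bound RNA (median -0.53), beside 53.5% and 53.4% of all rows called in either direction. Vegfa, the angiogenic growth factor and a standard HIF target, was at 53.2 ± 1.76 RPKM in the kidney and 31.3 ± 3.92 in the brain transcriptome, and was lower on ribosomes in both organs. In brain EC 4 of the list were higher and 3 lower than in the brain translatome, and in kidney EC 4 and 4, beside 46.2% and 31.7% of all rows called. Of 6 gluconeogenesis genes, which run the pathway backwards, 3 were lower and none higher in brain total RNA (median -2.01), with 26.3% of all rows called as lower and 27.2% as higher, and Pck2 was called as higher in both endothelial groups (8.90 against 3.92 RPKM in brain and 12.6 against 11.5 in kidney, where the RPKM difference was smaller than the 1.40-fold TMM change). Of 7 pentose phosphate genes 3 were higher and none lower in the Emx1 lineage than in the brain translatome (9.20% of all rows called as higher, 12.8% as lower), and 2 were higher and none lower in kidney EC than in the kidney translatome (16.7% and 15.0%).

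The genes whose profile was most like each member over the 21 libraries were found by Pearson's r of log2(RPKM + 1) among rows with a mean RPKM of at least 5. For Aldoc they were Bdh1 (r = 0.997), Ckb (0.996) and Pde1b (0.995), and for Eno2 Mpp3 (0.984), Arvcf (0.984) and Mib2 (0.982). For Hk2 they were Paics (0.991), Xrcc5 (0.988) and Cdc40 (0.977). The closest genes were Prodh for Gpi1 (0.977), Myc for Aldoa (0.976), Aimp2 for Pgk1 (0.971), Eif2s1 for Ldha (0.969) and Pdxdc1 for Pfkl (0.950). Eno1 (Cited2, 0.915) and Hk1 (Nsf, 0.876) had no gene as close. No member was among the 3 nearest of another. These values describe 21 libraries that fall into 7 groups of 3, and libraries of a group share their cells and scale.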

How the data were processed

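Poly(A) RNA libraries (TruSeq v2) of 21 samples were measured. The deposited files give, per gene row, read counts and RPKM. The authors mapped reads to GRCm38/mm10 with RUM and made RPKM with rpkmforgenes on UCSC refGene models, and the depth behind RPKM equals the reads on rows with an mRNA accession. The test used was edgeR's quasi-likelihood test (edgeR 4.0.16, glmQLFit and glmQLFTest with TMM factors, run under R 4.3.3), applied in 12 comparisons of 3 against 3 libraries and 2 interactions over 12 libraries. Rows with at least 1 read entered, p-values were Benjamini-Hochberg adjusted over all rows, and calls needed an adjusted p under 0.001. SEs are the log2 change divided by the square root of F. Scripts were tested on simulated data. Alternatives were DESeq2 1.42.0, relative log expression factors, total counts, at least 10 reads in 3 samples, a replicate block, a single fit of 21 samples, each library left out and the log2 ratio of mean RPKM. Same-numbered translatome and transcriptome libraries share a tissue sample per the study's sample sheet, and their deviations from the group means correlated at 0.479 to 0.663 in brain and 0.703 to 0.736 in kidney over 13052 genes, brain EC and kidney EC at 0.164 to 0.395, where the numbers' origin is not given. Libraries held 21760652 to 79231692 reads, and reads carry no molecular identifiers. Shared sequence was measured as exact 50-base windows in GENCODE vM21 transcripts, counted length from reads, RPKM and depth. All 10 members, the listed pathway genes and the markers were named by fixed lists, and members and lists were chosen with earlier results of these data known. Genes most like a member were the 3 rows with the highest r.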

Additional observations from a re-analysis of the deposited data

Results flagged for a closer look

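Results are given here where the same contrast differed between brain and kidney in a direct test. For ribosome-bound against total RNA, the log2 change of Hk1 differed by 0.53 (adjusted p = 5.2e-05) and that of Eno2 by 1.36 (adjusted p = 1.0e-05), in each case lower in kidney (log2 -0.60 and -1.65) than in brain (-0.05 and -0.27). For endothelial against whole-organ ribosomes, the log2 change of Hk1 differed by -0.63 (adjusted p = 2.2e-04), with 0.23 in brain and 0.89 in kidney, and that of Pfkl by 0.57 (adjusted p = 8.6e-04), with 0.48 in brain and -0.07 in kidney. The kidney translatome, the group in which Hk1 was lowest (17.3 to 19.0 RPKM), enters both tests, so the Hk1 results share those 3 libraries. The Pfkl call was lost in most fits that left out a single library. It was also lost with relative log expression factors (adjusted p = 3.3e-03), the 10-read filter (1.4e-03) and the replicate block (1.0e-03).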

How the results depend on the processing

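Of 1920 values recomputed under an alternative for single members, 1697 kept their direction and side of the threshold (or, for the RPKM ratio, lay within the replicate spread), 74 kept the direction and lost the call, 50 gained one, 36 changed sign and 63 RPKM ratios moved by more than that spread. With the replicate block, 5 members were called instead of 3 for brain translatome against transcriptome. In kidney 9 were called instead of 6 (9496 rows instead of 5929). Within each organ the numbers mark a shared tissue sample. Between organs 4 instead of 2 members differed in this contrast, where the block joined brain and kidney libraries by number alone. For brain EC against kidney EC the block changed no member's call. In the other comparisons the samples share only a number, none had each library correlate best with its own number, and the block moved the endothelial interaction from 2 to 1 member, brain EC against brain transcriptome from 4 to 6 and kidney EC against kidney transcriptome from 6 to 5. The single fit of all 21 libraries called 1 member for brain translatome against transcriptome and 4 in the endothelial interaction, which relative log expression factors and the 10-read filter both put at 1. DESeq2 called 7 members instead of 4 for brain EC against brain transcriptome, and 2669 rows instead of 1301 in the ribosome interaction (850 without kidney transcriptome replicate 2).

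By total counts the sign changed for Eno1 (-0.01) in brain against kidney translatome, Hk1 (-0.07) in brain EC and Pgk1 (-0.15) in kidney EC against the translatome, Ldha (0.12) in the Emx1 lineage against brain EC, Hk1 (-0.14) and Pfkl (-0.11) in brain EC against the transcriptome, and Hk1 (-0.07), Gpi1 (-0.17), Pgk1 (-0.43) and Ldha (-0.37) in kidney EC against the transcriptome. In the latter comparison Hk1 was at -0.09 as an RPKM ratio, Pgk1 at -0.001 by DESeq2 and by relative log expression, -0.01 with the 10-read filter and -0.09 in the single fit, and Ldha at -0.03 in the single fit, which also put Gpi1 at 0.11 between the endothelial groups. In the endothelial interaction Ldha was at -0.05 by DESeq2 and by relative log expression. Of these, Hk1 in kidney EC against the transcriptome was the 1 value called in the main test.

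Leaving out 1 library gave 0 to 2 called members for brain translatome against transcriptome, 2 to 5 for the Emx1 lineage against brain transcriptome and 1 to 3 in the endothelial interaction. Uncalled values that changed sign ranged from -0.16 to 0.05 (Ldha, brain translatome against transcriptome), -0.26 to 0.03 (Eno1, kidney translatome against transcriptome, and again brain against kidney transcriptome), -0.23 to 0.003 (Hk2, brain EC against translatome), -0.15 to 0.002 (Pfkl, kidney EC against translatome), -0.06 to 0.22 (Eno1, Emx1 lineage against translatome), -0.03 to 0.03 (Gpi1) and -0.07 to 0.42 (Eno1) between the endothelial groups, and -0.05 to 0.04 (Pgk1) and -0.01 to 0.10 (Ldha) in kidney EC against transcriptome, and -0.14 to 0.35 (Eno1) and -0.03 to 0.16 (Ldha) in the endothelial interaction. The cause was not tested. Eno1 rests on 22 to 107 reads per library and kidney EC Aldoc on 30 to 38, which limits both.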

Other observations

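Gm5506, the gene that the annotation names Eno1b and that holds most of the sequence of Eno1, varied within groups. It has 2 rows in the files, and 1 of them was at 0 in all libraries. The other had 4.25, 0.07 and 4.40 RPKM in the Emx1 lineage, from 595, 4 and 411 reads. It had 6.47, 9.60 and 11.2 RPKM in brain EC and 7.23, 12.5 and 12.4 in kidney EC. Eno1 itself had 10.6, 10.7 and 10.3 RPKM in the same Emx1-lineage libraries.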
